A study of Mus musculus with 10 samples.

Results

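MicroRNA genes encode short hairpin RNAs from which a mature guide RNA is cut, and 414 of them had DNA methylation values in this series of mouse embryos. They were taken from 1090 autosomal RefSeq genes of the mm10 genome with a symbol starting Mir and the biotype miRNA. A gene was included when the stretch from 1000 bp before it to 1000 bp after it, here its window, held 3 or more cytosines of the deposited table. No level of methylation entered that choice. The other 676 genes had too few cytosines: 643 had none, 14 had 1 and 19 had 2. Genes that lie close together can have the same measured cytosines, so the 414 genes stand for 391 distinct windows with 10909 distinct cytosines, out of 2346489 autosomal cytosines in the table.

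The embryos were whole mouse embryos of embryonic day 7.5 from the 2nd experiment of the study, 5 in a control group and 5 in an arsenic group, as the titles call them. The name of the deposited table calls them "F2emb", and the titles do not say which generation received the arsenic. Dose, timing and route of the arsenic, strain, sex, and whether embryos shared a litter are not stated in the labels. DNA came from the homogenate of single embryos, and reduced representation bisulfite sequencing, which reads CpG-rich restriction fragments after unmethylated cytosines have been converted, gave methylated and unmethylated read counts at each cytosine of a CpG. The columns of the table are numbered 1 to 10 and could be tied to no embryo or group, so the comparison of control with arsenic was not made, and the 10 libraries below mix both groups.

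A miRNA gene is transcribed as a longer primary RNA, from which the enzymes Drosha and Dicer cut the hairpin and then the mature miRNA. Bases 2 to 8 of the mature miRNA, the seed, pair with target messenger RNAs and lead to their repression. Many miRNA genes lie inside a protein-coding gene and can be transcribed with that host, whereas others have their own promoters, and methylation of a CpG-rich promoter usually goes with silence of its gene. At this stage the embryo is gastrulating, and its genome has regained methylation after the low point reached before implantation.

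The sequences that matter most for what follows are those made from several loci, because the methylation levels of their copies could be compared. All printed sequences are from RefSeq (GRCm38.p6, the coordinates of mm10), are written 5′ to 3′, and the table of sequences held 381 of the 414 genes. In the mature sequences the capitals mark the seed. The first set shows miRNAs with identical copies at separate loci, whose loci are compared below.
miR-9-5p: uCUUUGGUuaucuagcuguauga
miR-196a-5p: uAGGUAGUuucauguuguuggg
miR-219a-5p: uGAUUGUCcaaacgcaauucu
miR-26a-5p: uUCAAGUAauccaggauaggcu

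The second set shows families that share a seed but differ in the rest of the miRNA: the let-7 family, the miR-34 family, the miR-132 and miR-212 pair, and the miR-148 and miR-152 pair.
let-7i-5p: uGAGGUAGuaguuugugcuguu
let-7c-5p: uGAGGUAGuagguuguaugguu
let-7e-5p: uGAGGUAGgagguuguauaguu
miR-34a-5p: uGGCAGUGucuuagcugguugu
miR-34b-5p: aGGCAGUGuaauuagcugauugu
miR-132-3p: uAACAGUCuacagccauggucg
miR-212-3p: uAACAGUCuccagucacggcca
miR-148a-3p: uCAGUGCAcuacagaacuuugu
miR-152-3p: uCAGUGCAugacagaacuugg

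The next sequences are whole hairpins, shown because the table measured cytosines within the hairpin itself. Here a capital C is a measured cytosine on the hairpin's own strand, and a capital G is a base whose partner on the opposite strand is a measured cytosine. Mirlet7i lies at chr10:122985640-122985724 on the minus strand, Mir219a-2 at chr2:29845631-29845727 on the minus strand, Mir433 at chr12:109591715-109591838 on the plus strand and Mir200c at chr6:124718322-124718390 on the minus strand.
Mirlet7i: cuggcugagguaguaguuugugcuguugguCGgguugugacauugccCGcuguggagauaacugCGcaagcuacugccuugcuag
Mir219a-2: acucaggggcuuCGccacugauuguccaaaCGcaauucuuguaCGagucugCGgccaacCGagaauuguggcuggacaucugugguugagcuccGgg
Mir433: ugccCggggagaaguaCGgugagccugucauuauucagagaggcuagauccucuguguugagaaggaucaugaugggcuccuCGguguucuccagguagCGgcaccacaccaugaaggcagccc
Mir200c: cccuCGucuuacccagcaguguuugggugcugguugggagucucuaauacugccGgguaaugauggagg

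The level of a gene is the methylated read count over the read count, each summed over the cytosines of its window and the 10 libraries, in percent. Windows of the 414 genes held 446604 to 649629 read counts per library, of 94583116 to 127102232 in the table, and a gene had a median of 7270 over all libraries. Each level is given with the lowest and highest of the 10 libraries in parentheses. Since 1 library may hold either group, this range covers differences between embryos, groups and libraries alike. A whole embryo mixes cell types, so a level between the extremes may be a mixture of cells, of the 2 alleles or of molecules, which cannot be told apart here.

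Most miRNA genes were either nearly free of methylation or clearly methylated. The median level was 54.1%, and in the single libraries it ran from 52.0% to 55.6%, with a median library of 54.9%. Of the 414 genes, 138 (33.3%) were under 20%, 230 (55.6%) were between 20 and 80%, and 46 (11.1%) were over 80%. Under 10% lay 114 genes, more than in any other step of 10 points, and 77 genes were between 70 and 80%, whereas only 12 were between 30 and 40%. No gene reached 90%. In 129 genes every library was under 20%, and in 15 genes every library was over 80%, while other genes crossed 20% or 80% from 1 library to another. Just at the limits lay Mir695 (19.0%) and Mir5121 (20.2%), and Mir6952 (79.98%) and Mir7037 (80.03%).

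**Figure D1:**
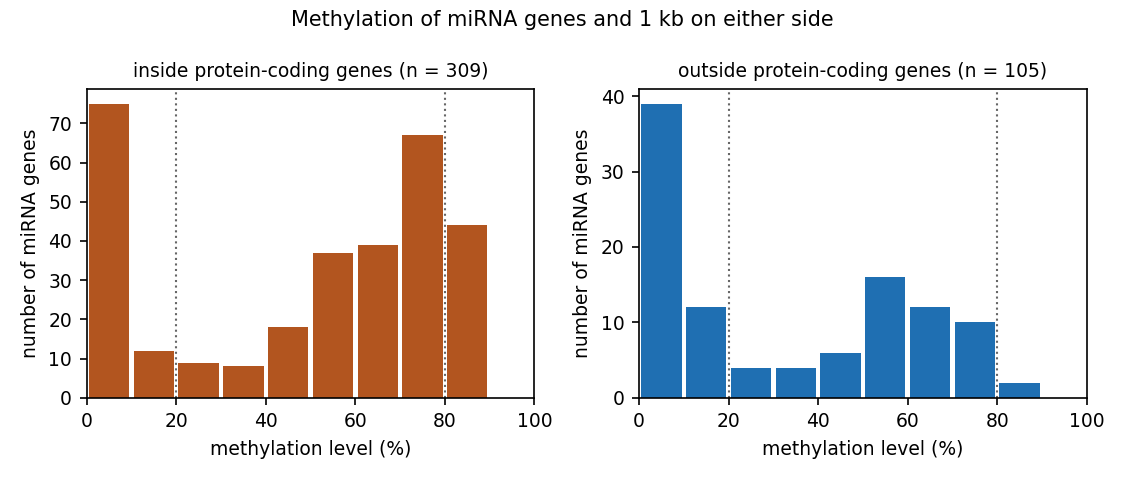
Number of miRNA genes (y axis) by methylation level of their windows in percent (x axis), in steps of 10 points, for the 309 genes inside and the 105 outside protein-coding genes; the y axes differ, and dotted lines mark 20 and 80%. Both panels have their highest bar under 10%, with 75 genes inside and 39 outside; over 80% there were 44 genes inside and 2 outside.

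Genes inside a protein-coding gene had higher levels than those outside. Of the 414, 309 lay within the span of a protein-coding gene, and their median was 59.5% (56.7 to 61.4% in the libraries). The 105 outside had a median of 26.4% (22.9 to 29.8%). The difference of the medians was 33.1 points, and it was positive in 10 of 10 libraries, at 31.2 to 35.6 points. Under 20% lay 87 of the 309 genes inside (28.2%) and 51 of the 105 outside (48.6%), and over 80% lay 44 inside (14.2%) and 2 outside (1.90%). The 2 outside were Mir1946b (82.8%) and Mir3471-2 (81.9%). These are descriptions without a p-value: genes are not replicates, and all libraries measured the same genes. The difference was 44.1 points with windows of 500 bp and 22.7 points with windows of 2000 bp.

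The place relative to a host moved together with the number of CpGs measured. In the windows with many, the difference of the medians did not hold, while the shares of the classes kept their direction. Among genes with 3 to 9 cytosines the medians were 70.5% inside (n = 89) and 60.9% outside (n = 27), and among those with 10 to 29 they were 64.2% (n = 138) and 51.4% (n = 37). Among genes with 30 or more cytosines the medians were 4.31% inside (n = 82) and 6.55% outside (n = 41), the opposite order, in 10 of 10 libraries (differences of -2.37 to -0.51 points). Such windows were 41 of the 105 outside and 82 of the 309 inside. Of them, 57 inside (69.5%) and 38 outside (92.7%) were under 20%, and 6 inside and 0 outside were over 80%. The upper quartile was 51.1% inside and 9.71% outside. Genes that lay on the same strand as their host had a median of 59.7% (n = 197), those on the opposite strand 43.6% (n = 28), and 84 could not be placed by strand. Whether a hairpin lay in an intron or an exon of its host was not analysed here.

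The number of measured cytosines ordered the levels more than the host did. The 123 genes with 30 or more cytosines had a median of 4.55%, and 77.2% of them were under 20%, against a median of 66.5% for the 116 genes with 3 to 9. Across the 414 genes Spearman's rho between level and number of cytosines was -0.55, a description across genes that share libraries and, in part, windows. Of the 123, 6 were nevertheless over 80%, all inside a protein-coding gene: Mir7677 in Itpr3 (82.0%), Mir702 in Plod3 (81.7%), Mir6910 at Plppr3 and Ptbp1 (81.3%), Mir431 in Rtl1 (80.5%), Mir7023 in Pik3cd (80.3%) and Mir6945 in Pdlim7 (80.1%). At the other end, 7 of the 116 genes with 3 to 9 cytosines were under 20%, among them Mir375 (3.67%), Mir125b-1 (16.02%) and Mir199b (15.1%), the last inside Dnm1.

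**Figure D2:**
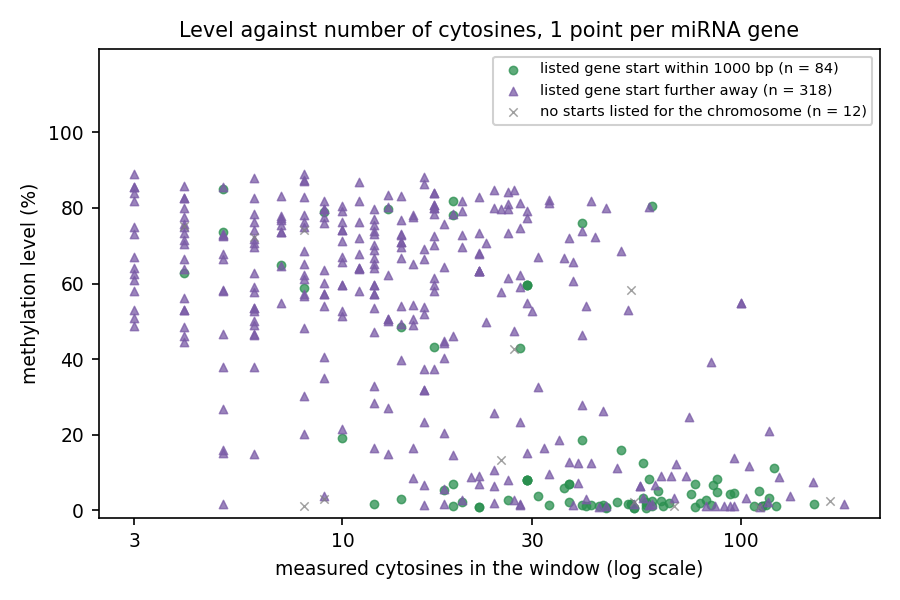
Methylation level in percent (y axis) against the number of measured cytosines in the window (x axis, log scale), 1 point per miRNA gene; green circles have a listed gene start within 1000 bp (n = 84), purple triangles have one further away (n = 318) and grey crosses lie on a chromosome with no listed start (n = 12). With 30 or more cytosines most points lie under 20% (77.2% of 123), and with 3 to 9 most lie above it.

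Starts of genes were read from the RefSeq promoter table, which is not complete, so a gene is described by its nearest listed start only. A protein-coding or long noncoding gene had a listed start within 1000 bp of 84 miRNA genes, and these had a median of 3.53%, with 79.8% under 20%. The 318 with a listed start further away had a median of 60.7%. Near a listed start, the medians were 2.83% inside (n = 62) and 6.94% outside (n = 22), a difference of -4.11 points and again negative in 10 of 10 libraries. Away from one, they were 66.1% inside (n = 238) and 45.6% outside (n = 80). With 30 or more cytosines and a listed start within 1000 bp, 53 of 55 genes were under 20%, and the other 2 were Mir6916 in Esyt1 (75.9%) and Mir431. With 30 or more cytosines and no listed start that close, the median was 32.0% inside (n = 40) and 6.55% outside (n = 23).

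Other small RNA genes were measured by the same rule. The 198 autosomal snoRNA genes, whose RNAs guide chemical changes of ribosomal RNA, had a median of 48.2%, with 48.1% inside protein-coding genes (n = 105) and 49.2% outside (n = 93). The 141 snRNA genes, which include those of the spliceosome, had 47.1%, with 60.9% inside (n = 55) and 33.5% outside (n = 86). The gap between inside and outside seen for miRNA genes was thus matched in direction by snRNA genes and not by snoRNA genes. These medians are not matched by cytosine number, of which miRNA, snoRNA and snRNA windows held a median of 17, 10 and 9. In that order, the median levels were 66.5%, 52.0% and 57.3% with 3 to 9 cytosines. They were 59.7%, 49.9% and 42.9% with 10 to 29, and 4.55%, 1.14% and 1.38% with 30 or more. These differences between classes of genes were not tested.

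Of the 10 genes with the lowest levels named next, 7 had a listed gene start within 1000 bp. So did 84 of all 414 miRNA genes and 55 of the 123 with 30 or more cytosines. With at least 10 cytosines, Mir1938 in Ifrd1 was lowest of all at 0.624% (0.360 to 0.953%), followed inside hosts by Mir1894 in Ppp1r10 (0.665%), Mir8092 in Zfp518a (0.732%), Mir7655 in Mllt10 (0.895%) and Mir7036b in Add1 (0.907%). Outside, the lowest were Mir5627 (0.653%), whose nearest listed start, 245 bp away, is that of the chaperone gene Dnajb9, Mir8114 at Glul (0.804%), Mir8120 (0.869%), Mir8105 (1.05%) and Mir132 (1.14%). All 10 had every library under 3%. With the same minimum, the highest inside were Mir1306 (88.2%, 84.4 to 91.7%), which lies in Dgcr8, the gene for the partner of Drosha, Mir3474 in Actr5 (87.0%, 81.7 to 96.3%), Mir6407 in Xpnpep1 (86.4%), Mir6914 in Ankrd52 (84.8%) and Mir7005 in the laminin gene Lama5 (84.8%). Outside, also with at least 10 cytosines, Mir7652 (79.1%), Mir539 (74.1%), Mir370 (72.7%), Mir8117 (70.6%) and Mir667 (67.1%) were highest. Windows with fewer cytosines reached higher, such as Mir7020 (88.9%) and Mir1291 (88.9%) inside and Mir1946b outside.

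The miR-290 cluster makes the main miRNAs of mouse embryonic stem cells and the early embryo, and its measured genes were hypomethylated in every library. Its miR-291a-3p carries the seed AAGUGCU that several members share.
miR-291a-3p: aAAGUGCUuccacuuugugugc

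Of 23 names on a list of early embryo clusters, 7 were measured, in 3 windows, and all were under 20%, as were 33.3% of all miRNA genes and 79.8% of those with a listed gene start within 1000 bp. Mir290a and Mir290b shared a level of 6.94% (4.81 to 8.85%, median library 7.09%). Mir291a, Mir292, Mir292b and Mir291b, in a window that the annotation places in the span of Nlrp12, had 7.91% (4.85 to 9.98%). Mir293 had 8.02% (4.67 to 10.2%). The nearest listed start, that of D7Ertd143e, lies 76 bp from Mir290a and 1559 bp from Mir293. Mir290a starts at position 3218626 of chromosome 7 and Mir293 ends at 3220422, so all 7 lie in a stretch of under 2000 bp and their windows share cytosines. The Mir302 and Mir17 clusters had too few cytosines to be measured.

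Genes of neural miRNAs were mostly under 20% as well. Of 23 names 15 were measured, with a median of 9.004% (8.55 to 10.97%) beside 54.1% for all miRNA genes, 11 under 20% (73.3%) and none over 80%. Under 20% were 33.3% of all miRNA genes and 77.2% of those with 30 or more cytosines. Mir132 (1.14%, 0.492 to 1.99%) and Mir212 (1.16%, 0.543 to 1.75%), made from 1 primary transcript and linked to neuronal activity, lie side by side near Hic1 on chromosome 11. Mir7b had 1.28%. The Mir124a genes, whose miRNA is the most abundant one in neurons, differed: Mir124a-3 had 2.19% over 117 cytosines (1.65 to 2.79%) and Mir124a-2 had 14.6% over 19 cytosines (9.37 to 20.9%), with no overlap of the libraries. Mir137 had 5.56%, Mir129-2 6.55% and Mir128-2, inside Arpp21, 15.2%. The higher ones were Mir138-2 in Nup93 (31.9%, 26.5 to 38.2%), Mir153 in Ptprn2 (47.0%, 41.3 to 55.8%) and Mir219a-2 (55.0%). The measured neural windows held a median of 56 cytosines, against 17 for all miRNA genes.

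miRNA genes of the Hox clusters, which repress Hox messenger RNAs along the body axis, were low to intermediate. Of 6 names 5 were measured, with a median of 16.5%. Mir196a-2 had 8.98%, Mir196b 13.9% (10.9 to 16.9%), Mir10b in the spans of Hoxd3 and Hoxd4 16.5% (13.4 to 18.1%), Mir615 in Hoxc5 18.6% (13.9 to 21.8%) and Mir196a-1 32.5%. Mir10b had 20.6% when each cytosine counted equally, which is just over the limit of 20%.

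miRNAs of the epithelial state, which repress the factors of epithelial-to-mesenchymal transition, had 3 of 7 genes measured. Mir203 had 14.8% (10.7 to 18.2%), and it had 5.24% when cytosines needed a coverage of 20 in every library. Mir141 had 26.4% (22.8 to 31.2%) and its neighbour Mir200c had 27.9% (24.0 to 32.8%). The 2 windows overlap on chromosome 6. The Mir200c value was an average over an uneven stretch: the side before the hairpin had 15.9% and the side after it 39.8%, the hairpin itself 9.504%, and a window of 500 bp gave 11.02%.

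Genes of muscle, blood and organ miRNAs showed mixed levels. For muscle 3 of 10 were measured: Mir1a-1 (50.1%, 39.9 to 58.1%), Mir499 in the myosin gene Myh7b (61.4%, 55.9 to 68.2%) and Mir208a in the cardiac myosin gene Myh6 (71.7%, 56.4 to 80.1%, with only 6 cytosines). For blood and endothelium 5 of 18 were measured in 3 windows, all between 20 and 80%: Mir150 (48.6%), Mir181c and Mir181d (52.98%), and Mir142 and Mir142b (64.1%, 59.0 to 69.9%). Mir375, abundant in pancreatic islets, had 3.67% (0.463 to 5.58%, 9 cytosines), whereas Mir194-1 and Mir215, gut and liver miRNAs that share 1 window in Iars2, had 83.9% (82.0 to 86.1%). Mir210, the best known miRNA of the hypoxia response, had 1.66% (1.03 to 2.25%).

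Imprinted miRNA genes did not share 1 level. The Dlk1-Dio3 region of chromosome 12 holds a large cluster of miRNA genes expressed from the maternal allele, and 15 of the 51 genes on a list of it were measured in 13 windows. Those 15 were between 63.2% and 81.9%, with a median of 74.1% (70.2 to 81.0%). Some measured genes of the same stretch that the list lacks were lower, with Mir341 and Mir1188 at 59.5% in their joint window and Mir1247, at Dio3os, at 18.7%. Others it lacks lay within the range of the listed ones, such as Mir1906-1 at 64.9% and Mir3071 at 80.7%. Those within the span of Rtl1, the retrotransposon-derived gene that several of these miRNAs repress from the opposite strand, included Mir127 (74.9%, 67.7 to 83.9%), Mir434 (79.8%), Mir431 (80.5%, 77.0 to 84.2%, 60 cytosines), Mir136 (80.7%) and Mir433 (81.9%, 77.5 to 86.5%). At the low end were Mir337, Mir540 and Mir665 (63.2%) and Mir300 (67.0%, only 3 cytosines). Mir300 had 49.6% when each cytosine counted equally. On chromosome 7, Mir675, which is cut from the H19 RNA, had 37.4% (33.9 to 43.4%) and Mir483 in Igf2 had 46.4% (38.8 to 57.9%). Of 76 names at other imprinted loci, most of them miRNA genes within the span of Sfmbt2, these 2 were the only ones measured.

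**Figure D3:**
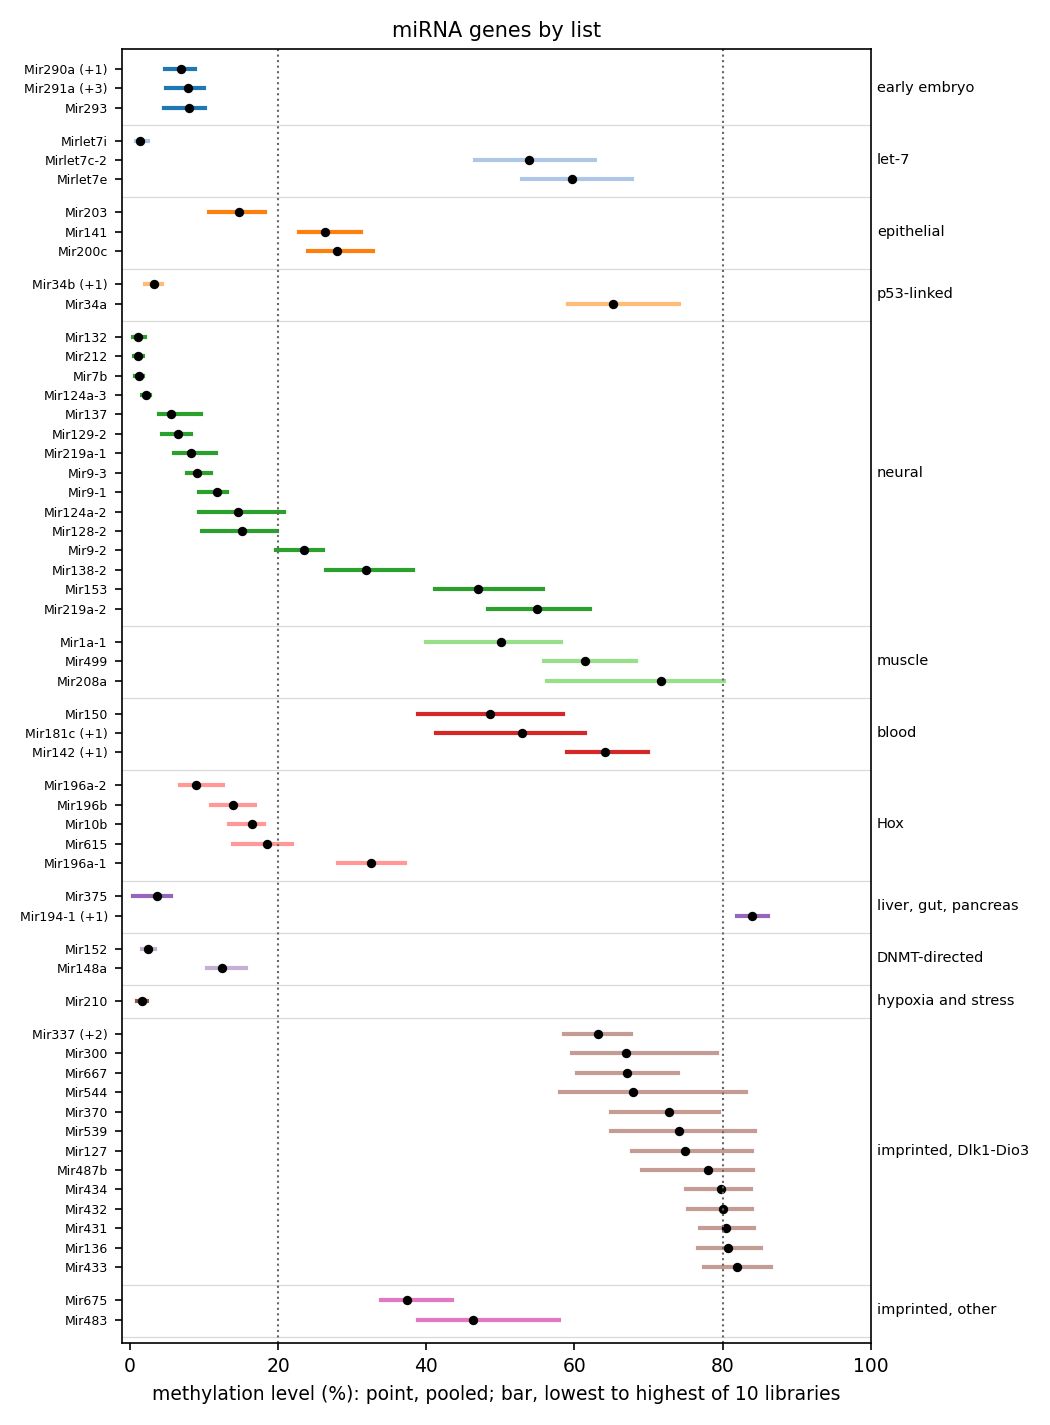
Methylation level in percent (x axis) of the measured miRNA genes of each list (rows), with the pooled level as a point and the lowest to highest library as a line; "(+n)" counts further genes with the same window. Early embryo and most neural genes lie under 20%, while the listed Dlk1-Dio3 genes lie between 63.2 and 81.9%.

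Copies that make the same mature miRNA did not always share a level. There were 7 mature sequences made from 2 or more measured windows, and they came from 5 sets of genes, since both arms of the hairpin counted for the Mir9 and the Mir7676 genes. The median spread between the copies of a set was 14.5 points, and in 3 of the 5 sets the copies fell into different classes. Of all 414 genes, 33.3% were under 20%, 55.6% between 20 and 80% and 11.1% over 80%. With such shares unrelated genes would often differ in class too, and sets of unrelated genes were not compared. The widest spread was that of miR-219a-5p, a miRNA of oligodendrocyte maturation. Mir219a-1, at chr17:34024983-34025092 outside protein-coding genes, had 8.31% (5.93 to 11.7%, median library 8.69%). That level was 1.60% with a window of 500 bp and 14.8% with a coverage of at least 20 in every library. Mir219a-2, on the opposite strand within Cercam, had 55.0% (48.3 to 62.1%, median library 55.0%). The libraries of the 2 copies did not overlap, and the windows held 87 and 100 cytosines.

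The other copies differed less. Among the 3 genes of miR-9-5p, a regulator of neural progenitors, Mir9-3 had 9.004% (7.68 to 10.97%, 5.93% with a window of 500 bp), Mir9-1 11.7% (9.40 to 13.2%) and Mir9-2 23.5% (19.7 to 26.1%). The libraries of Mir9-2 did not overlap those of the other copies, while those of Mir9-1 and Mir9-3 did overlap each other. Of the genes of miR-196a-5p, Mir196a-2 had 8.98% (6.76 to 12.5%) and Mir196a-1 32.5% (28.1 to 37.2%), again without overlap. Mir26a-1 in Ctdspl and Mir26a-2 in Ctdsp2, a pair of related phosphatase genes, had 79.1% (76.3 to 82.7%) and 79.7% (71.4 to 86.0%), and their libraries overlapped.

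Genes that share a seed were compared in the same way. Without the sets of identical miRNAs just described, 34 sets of genes shared a seed. In 18 of them the genes fell into more than 1 class, and the median spread was 16.8 points. Sets of unrelated genes, which would often differ in class too, were not compared here either. In the let-7 family, whose mature forms accumulate as cells leave the embryonic state, 3 of 12 genes were measured. Mirlet7i had 1.32% (0.859 to 2.45%), Mirlet7c-2 53.8% (46.5 to 62.8%) and Mirlet7e, in a window of Spaca6 shared with Mir99b and Mir125a, 59.7% (52.9 to 67.7%). Mir1961 in Shroom3, which has the let-7 seed under another name, had 52.7% (44.4 to 58.5%). Of the miR-34 family, which is induced by p53, Mir34b and Mir34c had 3.26% (2.11 to 4.31%) in their joint window, and 1.91% with a coverage of at least 20, and Mir34a had 65.3% (59.2 to 74.1%, 12 cytosines). Mir132 and Mir212, with 1 seed, lie next to each other, and all 86 cytosines of Mir132 are also among the 96 of Mir212, so their levels could hardly differ. Mir152, in Copz2, had 2.40% (1.70 to 3.42%) and Mir148a 12.5% (10.4 to 15.6%), but with a window of 500 bp they had 2.40% and 3.21%. Both are known for targeting DNA methyltransferase messenger RNAs. The widest spread of all, 85.8 points, was between Mir7071 (2.13%) and Mir7034 in Tmem120a (87.9%).

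**Figure D4:**
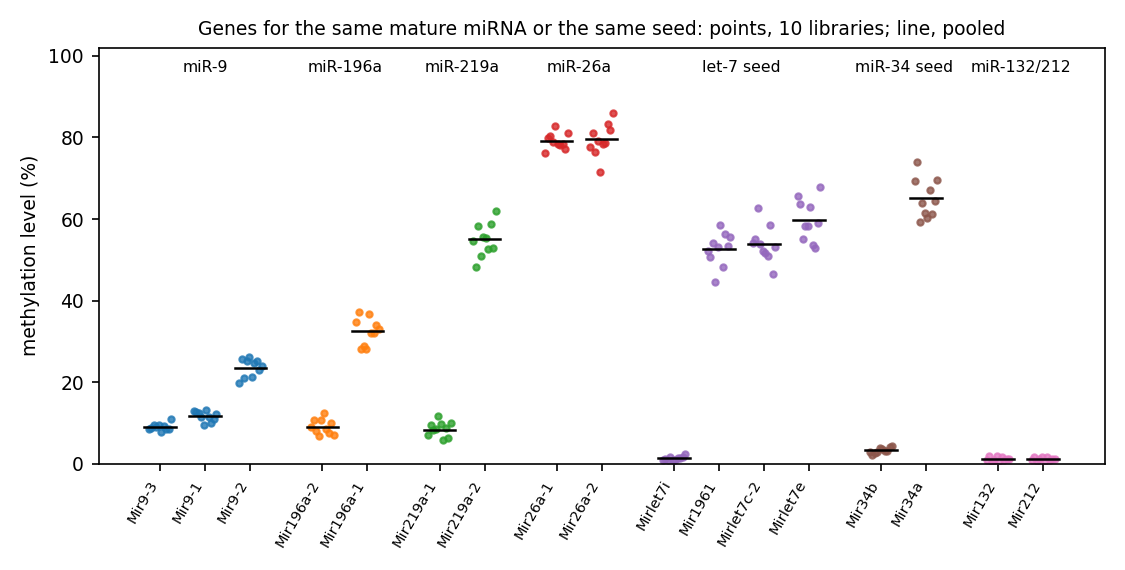
Methylation level in percent (y axis) of genes that make an identical mature miRNA or share its seed, with 1 small point for each of the 10 libraries and a bar for the pooled level. The points of Mir219a-1 and Mir219a-2 lie far apart, as do those of Mirlet7i and the other let-7 genes, while those of Mir26a-1 and Mir26a-2 overlap.

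Within the windows, hairpins mostly had the level of their surroundings where these were low, and less often where these were methylated. A measured cytosine lay inside the hairpin of 116 genes, and 72 had at least 3 in the hairpin and 3 outside it. In these the median difference of hairpin minus flanks was -0.55 points, 52 were within 5 points, and Spearman's rho across the 72 genes was 0.89. In 13 genes the difference was 10 points or more, with the hairpin lower in 4 and higher in 9. The flanks of these 13 had levels from 27.4% (Mir138-2) to 87.3% (Mir6914). Most of the 52 genes within 5 points had flanks below that range, where a hairpin had little room to be lower. The median difference and the rho were taken over low and high genes together, so they say little about methylated flanks alone. The lowest hairpin relative to its flanks was that of Mir200c, printed above, with 9.504% (5.80 to 14.6%, 3 cytosines, 1936 reads) against 30.1% (26.7 to 34.7%) in the flanks, lower in 10 of 10 libraries. The hairpin of Mir219a-2, with 11 cytosines, was higher than its flanks, at 66.4% against 53.2%, in 9 of 10 libraries. That of Mirlet7i had 0.392% and that of Mir433 84.1%.

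Some measured cytosines lay in the part of the gene that becomes the mature miRNA. There were 96 such mature miRNAs from 74 genes, with a median level of 15.7%, and in 51 of them, from 46 genes, a cytosine lay in the seed itself. Of these 51 seeds 28 were under 20% and 4 over 80%. Of the windows of all miRNA genes 33.3% were under 20% and 11.1% over 80%. Of those with 30 or more cytosines 77.2% were under 20% and 4.88% over 80%. The seeds were not matched by cytosine number. The following 3, chosen from genes described above, are examples of low and high seeds, with the CpG within the capitals of the seed.
let-7i-3p: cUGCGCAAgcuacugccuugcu
miR-433-5p: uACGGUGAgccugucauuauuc
miR-434-5p: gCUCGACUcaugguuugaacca

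The seed cytosines of let-7i-3p had 0.503% (0 to 3.39%), those of miR-433-5p 81.4% (68.2 to 91.5%) and those of miR-434-5p 83.1% (77.3 to 94.1%). Each rested on 2 cytosines, the 2 strands of 1 CpG, and these few cytosines are less precise than a window.

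The sides of some genes differed. With at least 3 cytosines on each side, 132 genes could be compared in the direction of transcription, and 26 differed by 20 points or more, 18 with the downstream side higher and 8 with the upstream side higher. Outside protein-coding genes 8 of 41 were higher downstream by that much and 1 upstream, and the median difference was 1.78 points (0.907 to 4.43 in the libraries). These are genes, not separate loci: Mir142 and Mir142b are the same window read on opposite strands and count once on each side, and the windows of Mir141 and Mir200c overlap. Inside, the counts were 10 and 7 of 91, and the median difference was 0.106 points (-0.04 to 1.16). Mir191 and Mir425 in Dalrd3 both count among the 10, with the same downstream level of 32.0% over 6 cytosines. Mir148a had 2.15% before and 48.8% after the hairpin, Mir3069 1.59% and 48.1%, and Mir5100 0.825% and 53.1%. Their sides after the hairpin held only 10, 16 and 6 cytosines, and a listed start lay 265 bp from Mir5100. Opposite cases were Mir5131 in Ddhd1 (69.6% before, 0.806% after) and Mir6924 in Acap1 (65.0% and 1.16%). Their sides before the hairpin held only 3 and 8 cytosines, against 75 and 53 after it. A listed start lay 90 bp from Mir5131 and 1047 bp from Mir6924. Neighbouring genes were compared too. Of 26 pairs within 10000 bp that did not have the same cytosines, 9 had windows that did not overlap, with a median gap of 13.2 points. Over all 26, most of which share part of their cytosines, it was 3.73 points. Mir8116 (2.28%) in Ache and Mir7036 (66.9%), 2748 bp apart on chromosome 5, differed most.

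**Figure D5:**
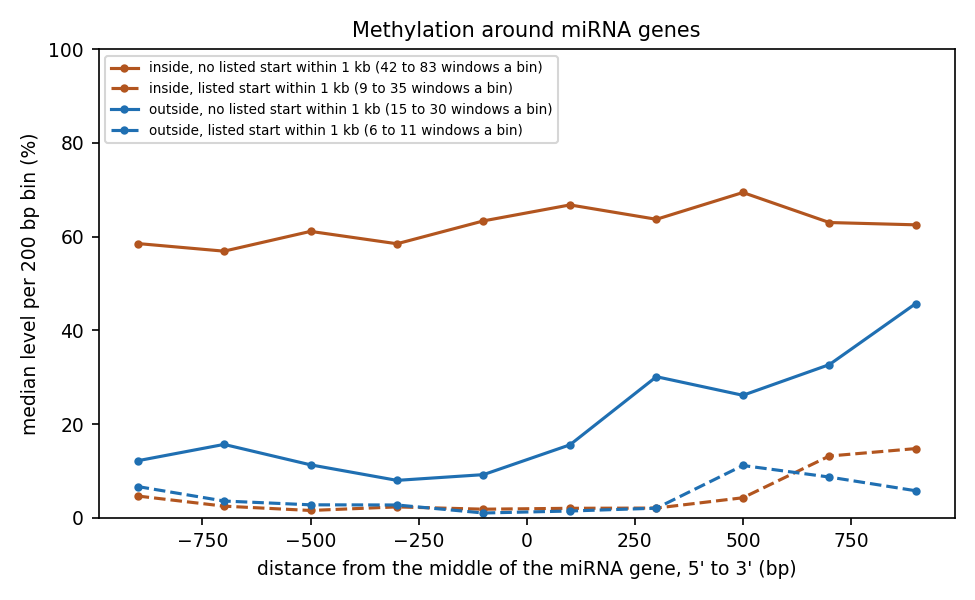
Median methylation level in percent (y axis) in bins of 200 bp by distance in bp from the middle of the miRNA gene (x axis, negative before it, in the direction of transcription), for genes inside and outside protein-coding genes with and without a listed gene start within 1000 bp. Outside and without a listed start, the median was 7.995% in the bin starting at -400 bp and 45.7% in the bin starting at 800 bp, from 18 windows; inside and without one, it stayed between 56.9% and 69.4%.

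Libraries varied most where few reads were counted. The median range over the 10 libraries was 9.36 points, 45 genes had a range over 20 points, and range and reads had a rho of -0.76 across the 414 genes. Where a window had at least 10 cytosines, read 20 times on average in each library, the 5 widest ranges included those of Mir8110 (31.5 to 53.8%), outside protein-coding genes, Mir6941 in the Notch ligand gene Jag2 (56.8 to 77.6%), Mir5621 in Tmem94 (54.4 to 74.9%) and Mir1963 in the calcium channel gene Ryr1 (48.9 to 69.2%). For Mir8110 the 95% Wilson intervals of the lowest and highest library, 29.1 to 33.9% and 51.6 to 56.0%, lay apart. These intervals cover counting error only, and reads without molecular identifiers that span several CpGs make them narrower than that error. No group can be given for these libraries.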

How the data were processed

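Per the file headers, the authors deposited 1 table of read counts per CpG cytosine: coverage, methylated and unmethylated counts for 10 libraries, not normalized and not merged by strand. Per the submitters' processing notes, Bismark, methylKit and Trim Galore were used with the mm10 build. For versions, settings and deduplication nothing is given in the sources used here, and reads counted more than once would make counts look more precise. All cytosines listed had 10 or more reads in each library, and more thinly read ones are missing. The 30 columns of single libraries could be matched to no sample, so the planned exact permutation test of control against arsenic was not run.

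Levels were computed with Python 3.11.15, numpy 2.4.6 and pandas 2.3.3, after the code had been tested on simulated data. Figures used matplotlib 3.10.9, and intervals scipy 1.17.1. Genes and hosts came from RefSeq (GRCm38.p6), and 531 of 531 measured hairpin cytosines fell on a matching letter. Genes were named if they were on a list, among the 5 lowest or highest distinct windows inside or outside with at least 10 cytosines, among the 5 widest over libraries, nearest to 20 or 80%, or copies of 1 mature miRNA in different classes. Other genes named were chosen after their values were seen. Members on chromosome 18 are counted but not named. The members and lists were chosen with earlier results of these data known. Alternatives were the coverage, the window, the cytosine minimum, the averaging, identical windows and left-out libraries.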

Additional observations from a re-analysis of the deposited data

Results flagged for a closer look

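Of 82 distinct windows named by the rule, 5 had 1 library that stood apart from the other 9, with its gap to the nearest of them over 0.466 of the whole range. Chance gives about 1 in 20 such cases among windows not chosen by their range, and 5 of 82 is close to that share. Mir8110 was named for its wide range, so the rate does not hold for it. Mir8110 had 53.8% in library 3 and 31.5 to 42.8% in the others. Mir10b had 13.4% in library 1 and 15.7 to 18.1% in the others. Mirlet7i had 2.45% in library 10 and 0.859 to 1.62% in the others. Mir8105 had 2.87% in library 6 and 0.131 to 1.59% in the others. Mir5627 had 1.60% in library 9 and 0 to 0.797% in the others. The 5 libraries are different ones, and the group of each cannot be given.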

How the results depend on the processing

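No paired analysis was possible because the numbered columns match no embryo's label, and the test of control against arsenic and its replicate block were not run. Leaving out each library in turn gave medians of 53.7 to 54.7% for all genes, 58.9 to 59.8% inside and 25.8 to 26.9% outside, differences of 32.6 to 33.5 points, shares of 33.3 to 33.8% under 20%, 54.3 to 56.3% between and 10.1 to 12.3% over 80%, and shares under 20% of 28.2 to 28.8% inside and 48.6% outside.

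The inside minus outside difference of medians reversed to -2.24 points within 30 or more cytosines. It reversed to -4.11 near a listed start, in a split chosen after seeing the data. It was 9.64 within 3 to 9 cytosines, 12.8 within 10 to 29, 20.5 away from a listed start and 25.2 without windows near an end of a protein-coding gene. With the mean of cytosine levels, the median outside was 28.9%, the difference 30.2 points and the share under 20% inside 28.8%. The values below follow 1 order: medians of all, inside and outside, the difference, and the shares under 20%, between 20 and 80%, under 20% inside and under 20% outside. With a coverage of at least 20 they were 50.4%, 56.6%, 15.8%, 40.8 points, 37.5%, 52.7%, 32.3% and 51.0%. With a window of 500 bp they were 51.8%, 57.3%, 13.2%, 44.1 points, 37.2%, 51.4%, 31.5% and 55.3%. With at least 10 cytosines they were 39.5%, 52.7%, 12.1%, 40.6 points, 44.0%, 46.6%, 38.2% and 60.3%. With a window of 2000 bp, the median outside was 37.5%, the difference 22.7 points, and the shares under 20% were 31.9% in all, 27.4% inside and 43.8% outside. Counting identical windows once gave 23.5% outside, a difference of 36.1 points and 49.5% under 20% outside. Counting neighbours within 10000 bp once, an alternative added after seeing the data, gave 17.4%, 41.6 points and 51.2%. Other values kept within 1 SD of the libraries, and the cause of the shifts was not tested.

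Of 92 named genes, 76 kept within 1 SD at a coverage of at least 20, 54 with a window of 500 bp and 86 with the mean of cytosine levels, while 7, 25 and 0 could not be measured. Libraries varied more in genes with few cytosines: with 3 to 9, the median range over libraries was 15.9 points, against 2.99 with 30 or more. These groups differed both in median reads (2289 and 25170) and in median level (66.5% and 4.55%). Which of these goes with the range was not tested.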

Other observations

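Chromosome X was kept apart because the sex of the embryos is not known. Of its 90 miRNA genes 9 were measured, in 6 windows. Mir5132 and Mir718, at the signalling gene Irak1, had 3.79% (0.536 to 9.77%) and Mir351 had 11.8% (6.14 to 21.4%). Mir7093 in Armcx3 had 20.4% (16.2 to 23.6%), and Mir767 and Mir105 in the receptor gene Gabra3 had 42.7% (28.1 to 49.3%). Mir503 and Mir322, made from the same transcript as Mir351, had 47.2% (25.5 to 69.1%), but with only 3 cytosines and 538 reads. Mir3113 in Huwe1 was highest at 89.8% (79.2 to 96.5%), with only 5 cytosines and 1158 reads. Its pooled level was above that of every autosomal miRNA gene measured. Its libraries overlapped those of the highest autosomal one, Mir7020 (88.9%, 83.2 to 96.8%, 3 cytosines).

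Of the 127 genes with a number under 1000 in their symbol, which are mostly the earlier named ones, the 74 inside protein-coding genes had a median of 56.2% and the 53 outside had 14.8%.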
